A study of Rattus norvegicus with 4 samples.

Results

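The genes described here encode proteins of the presynaptic active zone and of vesicle priming. They were chosen by name, with earlier results of these data known: Bsn, Pclo, Rims1, Rims2, Ppfia2, Ppfia3, Erc2, Unc13a, Cadps and Cplx1. Of these 10 genes, 9 had a line in the RNA-Seq count tables, among 25810 genes in all. Rims1 was looked up under its symbol and its RefSeq synonyms without a match and is not analysed here. In hrPC12 relative to wtPC12, 5 of the 9 genes fell (Bsn, Ppfia2, Ppfia3, Cadps and Cplx1), 1 rose (Erc2), and 3 did not pass both thresholds (Pclo, Rims2 and Unc13a). Among all 13726 genes tested, 5.46% fell and 4.84% rose.

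The samples were 2 libraries of wtPC12, the clone labelled wild type with low levels of the transcription repressor REST, and 2 libraries of hrPC12, a clone labelled high REST and formerly named PC12-27. Both are clones of PC12, a cell line from a rat pheochromocytoma, a tumour of adrenal chromaffin cells, and the sources used here name no treatment of either. Each condition is thus 1 clone, so REST level and any other difference between the clones cannot be told apart. The sources do not say whether the libraries of a clone came from separate cultures, so the p values measure only the spread between libraries, which may be technical.

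The active zone is the patch of presynaptic membrane where vesicles dock and fuse. Large scaffolds (Bassoon, Piccolo), RIM, ELKS/CAST and liprin-alpha proteins hold calcium channels and vesicles there, Munc13 and CAPS proteins prime vesicles for fusion, and complexins bind the assembled SNARE complex. Chromaffin cells release catecholamines from dense-core vesicles, a process that uses the same priming factors but no synaptic active zone. REST represses many neuronal genes by binding the RE1 element, a DNA motif with a left and a right arm.

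The promoters of 5 of the genes are shown because matches to the arms of the RE1 motif differ among these sequences. The sequences are RefSeq's for the GRCr8 assembly and run, 5′ to 3′ on the gene's strand, from 250 bases before the annotated start to 50 bases after it. Capitals mark every match, on either strand, to 7 letters of the left arm (CAGCACC) or of the right arm (GGACAGC). Unc13a lay at chr16:18415737-18416036 (- strand), Pclo at chr4:21005062-21005361 (- strand), Bsn at chr8:117754363-117754662 (- strand), Cadps at chr15:14720476-14720775 (+ strand) and Erc2 at chr16:2819262-2819561 (+ strand).
Unc13a: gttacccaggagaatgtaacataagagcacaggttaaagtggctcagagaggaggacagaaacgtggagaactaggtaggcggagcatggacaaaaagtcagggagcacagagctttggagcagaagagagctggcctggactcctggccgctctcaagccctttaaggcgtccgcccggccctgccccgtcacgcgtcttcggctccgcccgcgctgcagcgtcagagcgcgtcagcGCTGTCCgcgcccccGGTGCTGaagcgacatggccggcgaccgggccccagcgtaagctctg
Pclo: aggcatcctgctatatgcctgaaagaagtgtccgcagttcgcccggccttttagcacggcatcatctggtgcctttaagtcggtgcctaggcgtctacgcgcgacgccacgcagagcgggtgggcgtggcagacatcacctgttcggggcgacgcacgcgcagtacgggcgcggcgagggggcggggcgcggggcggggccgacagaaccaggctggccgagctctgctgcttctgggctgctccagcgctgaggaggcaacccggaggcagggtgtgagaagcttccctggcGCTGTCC
Bsn: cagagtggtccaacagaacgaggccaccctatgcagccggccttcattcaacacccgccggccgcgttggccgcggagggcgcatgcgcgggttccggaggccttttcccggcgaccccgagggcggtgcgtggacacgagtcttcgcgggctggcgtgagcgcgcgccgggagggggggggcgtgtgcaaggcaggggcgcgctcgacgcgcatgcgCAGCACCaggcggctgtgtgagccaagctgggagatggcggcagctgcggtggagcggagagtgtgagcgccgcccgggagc
Cadps: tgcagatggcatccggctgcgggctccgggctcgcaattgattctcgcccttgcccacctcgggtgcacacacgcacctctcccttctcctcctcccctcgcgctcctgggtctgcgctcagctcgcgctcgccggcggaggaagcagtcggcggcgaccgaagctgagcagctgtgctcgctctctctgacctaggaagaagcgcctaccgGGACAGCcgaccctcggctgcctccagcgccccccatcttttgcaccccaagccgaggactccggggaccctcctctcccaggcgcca
Erc2: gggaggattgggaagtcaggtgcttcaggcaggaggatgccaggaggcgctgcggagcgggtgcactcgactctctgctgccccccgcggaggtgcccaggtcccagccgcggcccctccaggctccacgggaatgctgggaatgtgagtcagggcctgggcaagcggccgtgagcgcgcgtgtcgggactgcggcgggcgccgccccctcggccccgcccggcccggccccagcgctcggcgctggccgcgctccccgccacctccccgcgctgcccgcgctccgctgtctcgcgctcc

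The 7 letters of the left arm were found in 6.78% of all 33469 RefSeq promoters of this length, those of the right arm in 6.59%, and either of them in 12.8%. A promoter was listed for 8 of the 10 genes, and 4 of these held either arm, namely Bsn (left), Cadps (right), Pclo (right) and Unc13a (both). Longer forms of 9 letters, TTCAGCACC and GGACAGCGC, which contain the shorter ones, were found in 0.356% and 0.415% of all promoters. The promoter of Unc13a held both long arms, in order on the strand opposite to the gene and 8 bases apart, spanning bases -14 to 12 around the start. In the canonical element the arms stand 2 bases apart. Of all the promoters, 7 held both long arms in order on the same strand with at most 20 bases between them, 2 of them at 2 bases and 2 at 8 bases. The promoter of Pclo held the long right arm on the strand opposite to the gene, at bases 42 to 50 after the start. The window ends at base 50, so a left arm in the same order as in Unc13a would lie outside the bases searched. Erc2, Ppfia3, Cplx1 and Rims1 held neither short arm in this window. These matches describe letters only, and REST binding was not measured. All 8 promoters were rich in G and C, from 63.0% to 76.7% against a median of 51.7% over all promoters, with 19 to 39 CpG dinucleotides against a median of 7.

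The libraries held 20975027 and 21999191 reads on genes in wtPC12, and 27246502 and 21634943 in hrPC12. Rest itself had 37 and 128 reads in the wtPC12 libraries and 1139 and 904 in those of hrPC12, and its log2 FC (hrPC12/wtPC12) was 3.42 (SE 0.57, Benjamini-Hochberg adjusted p 0.0115 by the quasi-likelihood test of edgeR). Leaving out wtPC12 replicate 2 gave 4.44 and leaving out wtPC12 replicate 1 gave 2.80 on the log2 scale, and Rest passed both thresholds used below with RLE factors, library totals, every gene with at least 1 read, the legacy option off or DESeq2. Of 7 chromaffin cell markers found by name, 5 fell, with summed normalized counts of 814643 to 952888 in wtPC12 and 45708 to 50282 in hrPC12. Of 7 mesenchymal markers, 5 rose, with sums of 129 to 170 against 86722 to 91337, Lum being at 0 in wtPC12. Col3a1 made up most of the hrPC12 sums, with 83801 and 88143 normalized counts, and Dcn had the opposite sign, with 36.1 and 21.6 in wtPC12 and 2.54 and 4.05 in hrPC12 (log2 FC -3.10, not past both thresholds). Sums for glial (162 to 166 against 237 to 257), leukocyte (6.18 to 16.3 against 9.11 to 10.2) and endothelial markers (29.1 to 34.0 against 59.7 to 63.5) were low in both clones, with Sox10 at 0 throughout. No glial, leukocyte or endothelial marker passed both thresholds, and the leukocyte sums overlapped between clones. The 5 chromaffin markers fell and the 5 mesenchymal markers rose between the same clones in which the genes described below were compared. The part of these markers in the results was not tested.

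Below, a gene fell or rose if the quasi-likelihood test of edgeR, with p values adjusted by Benjamini-Hochberg over all tested genes, gave less than 0.01 and the absolute log2 FC was above 2. Normalized counts are reads divided by the TMM-scaled library size and set to the mean library. They carry no gene length, so they compare libraries for the same gene and not genes with each other. In such bulk samples, fewer cells that express a gene and less RNA per cell cannot be told apart. The clones did not overlap for any of the 9 genes, with hrPC12 lower for 8 and higher for 1, whereas this held in the lower direction for 35.6% and in the higher for 37.9% of all tested genes. On the log2 FC scale the 9 genes had a median of -4.24, against 0.06 over all tested genes. Without wtPC12 replicate 2, none of the 6 calls remained and no tested gene passed both thresholds, the smallest adjusted p being 0.0130. In that fit 8 of the 9 genes had an unadjusted p under 0.05 and 7 an adjusted p under 0.05, and DESeq2 on the same 3 libraries called 6 lower and 1 higher.

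**Figure D1:**
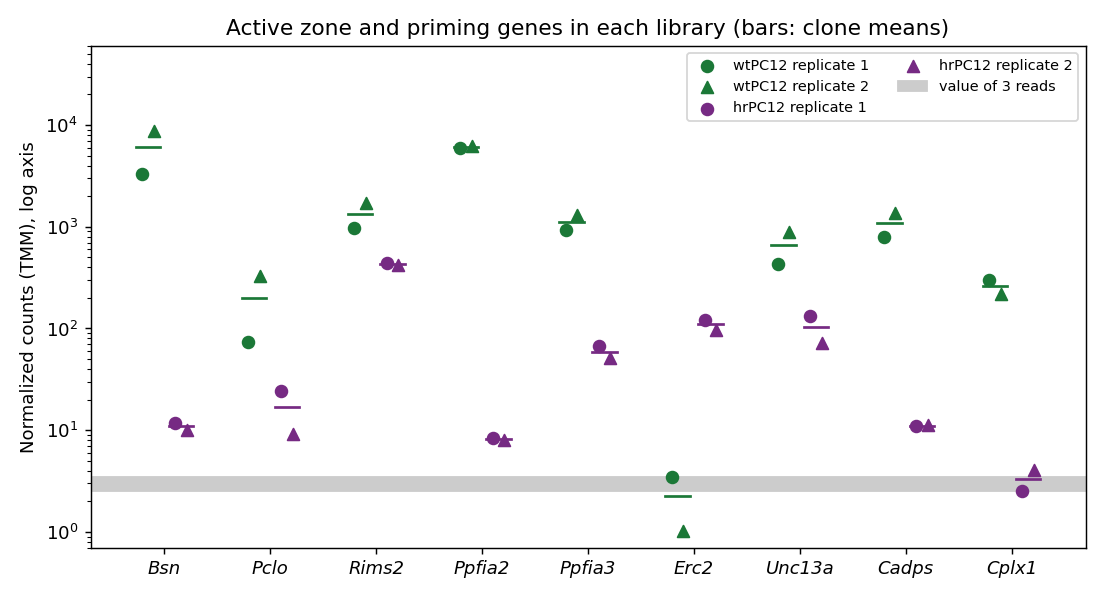
Normalized counts (log axis) of the 9 genes in each of the 4 libraries; points are libraries, bars are clone means, and the grey band is the value of 3 reads. Both hrPC12 points lie below both wtPC12 points for every gene except Erc2, where the order is turned.

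The giant scaffolds Bassoon and Piccolo, which organize the cytomatrix of the active zone, were both lower in hrPC12, 1 of them past both thresholds. Bsn (Bassoon) had 3305 and 8787 normalized counts in the wtPC12 libraries and 11.9 and 10.1 in those of hrPC12. Both wtPC12 libraries were far above both of hrPC12, where only 14 and 10 reads were counted. Bsn thus fell from 6046 ± 3876 to 10.99 ± 1.23 (SD, n = 2 each), a log2 FC of -9.08 (SE 0.70) with an adjusted p of 0.00121, or -8.21 without wtPC12 replicate 2. Pclo (Piccolo) had 74.4 and 326 normalized counts in wtPC12 and 24.6 and 9.11 in hrPC12. The clones did not overlap, but the libraries of each clone stood far apart, and Pclo did not pass both thresholds (log2 FC -3.54, SE 0.90, adjusted p 0.0378). Leaving out wtPC12 replicate 2 gave -2.12, and leaving out hrPC12 replicate 1 gave -4.44, where it passed both thresholds, as it did with DESeq2 on all libraries.

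RIM proteins tether vesicles through Rab3 and recruit calcium channels to the release site. Rims2 had 974 and 1710 normalized counts in wtPC12 and 438 and 425 in hrPC12. The hrPC12 libraries lay close together and below both of wtPC12. The log2 FC was -1.64 (SE 0.33) with an adjusted p of 0.0197, so it did not pass either threshold, and it passed both, among the fits tried, only without wtPC12 replicate 1, at -2.02. Rims4, a short relative that keeps only a C2 domain, fell from 112 and 279 reads to 0 and 1, with a log2 FC of -8.47 (SE 0.93, adjusted p 0.00339) that depends on the prior count of the fit. Rims3, of the same short type, had 52.3 and 146 normalized counts in wtPC12 and 189 and 99.2 in hrPC12. Its clones overlapped and no difference passed the test (log2 FC 0.53, SE 0.61, adjusted p 0.521).

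Liprin-alpha proteins link LAR-type receptor phosphatases to the release site and guide the assembly of new active zones. Ppfia2 (liprin-alpha-2) had 5912 and 6180 normalized counts in wtPC12 and 8.47 and 8.09 in hrPC12. The libraries of each clone nearly coincided, and the clones were separated by orders of magnitude. Ppfia2 fell with a log2 FC of -9.49 (SE 0.24) and an adjusted p of 0.000243, the lowest adjusted p and the largest fold of the 9 genes. Ppfia3 (liprin-alpha-3) had 936 and 1303 normalized counts in wtPC12 and 66.9 and 51.6 in hrPC12, so it was lower but still well covered. It fell by 4.24 on the log2 scale (SE 0.33, adjusted p 0.00121). The other members of the family did not pass the test. The widely expressed Ppfia1 had 3113 and 4003 normalized counts in wtPC12 and 2870 and 2883 in hrPC12 (log2 FC -0.31, SE 0.19, adjusted p 0.261), and Ppfia4 had 65.1 and 116 against 32.2 and 36.4 (log2 FC -1.40, SE 0.44, adjusted p 0.0620).

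Erc2 encodes CAST, the ELKS-family protein that binds RIM, Bassoon and Piccolo, and it was the gene that rose. It had 3 and 1 reads in the wtPC12 libraries and 144 and 96 in those of hrPC12, or 3.49 and 1.03 against 122 and 97.1 normalized counts. Both wtPC12 libraries were at about the level of 3 reads or below it, and both hrPC12 libraries were well above it. The ratio of the summed reads, scaled by library size, was 50.6, with a 95% exact counting interval of 19.5 to 187. The log2 FC of 5.56 (SE 0.60, adjusted p 0.00327) depends on the prior count of the fit, and leaving out wtPC12 replicate 2 or replicate 1 gave 4.92 or 6.54. Erc1, its broadly expressed paralogue, had 193 and 580 normalized counts in wtPC12 and 986 and 875 in hrPC12. The clones did not overlap, but Erc1 did not pass the test (log2 FC 1.27, SE 0.53, adjusted p 0.126).

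Munc13 and CAPS proteins act after docking, the former by opening syntaxin for SNARE assembly and the latter mainly on dense-core vesicles. Unc13a (Munc13-1) had 428 and 896 normalized counts in wtPC12 and 134 and 71.8 in hrPC12. The clones did not overlap, and the libraries differed by about the same factor within either clone. Unc13a did not pass both thresholds (log2 FC -2.68, SE 0.52, adjusted p 0.0183), although it did with DESeq2 and with either other library scaling, and its log2 FC was -2.05 without wtPC12 replicate 2. Its paralogues had the opposite sign. Unc13b (Munc13-2) had 715 and 1380 normalized counts in wtPC12 and 2809 and 2656 in hrPC12 (log2 FC 1.38, SE 0.34, adjusted p 0.0354), and Unc13d (Munc13-4), known from granule release in blood cells, had 4.65 and 7.21 against 35.6 and 25.3 (log2 FC 2.33, SE 0.52, adjusted p 0.0273). Neither passed both thresholds, and Unc13c was listed at 0 in all 4 libraries.

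Cadps (CAPS-1), a priming factor of dense-core vesicles, had 801 and 1381 normalized counts in wtPC12 and 11.01 and 11.13 in hrPC12. Both hrPC12 libraries, with 13 and 11 reads, were far below both of wtPC12. Cadps fell with a log2 FC of -6.61 (SE 0.44) and an adjusted p of 0.000854. Its paralogue Cadps2 was listed at 0 in all 4 libraries, which leaves 13 and 11 reads of Cadps as the whole count of the CAPS family in hrPC12.

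Complexins clamp and then promote fusion at the assembled SNARE complex. Cplx1 had 258 and 213 reads in wtPC12 and 3 and 4 in hrPC12, or 300.1 and 219 against 2.54 and 4.05 normalized counts. The hrPC12 libraries were at the level of 3 reads. Cplx1 fell, with summed reads 79.8 times higher in wtPC12 once scaled by library size (95% exact counting interval 38.4 to 199) and a log2 FC of -6.27 (SE 0.47, adjusted p 0.00115). Cplx2 had 351 and 586 normalized counts in wtPC12 and 179 and 154 in hrPC12, with no overlap, and did not pass both thresholds (log2 FC -1.49, SE 0.35, adjusted p 0.0305). Cplx3 overlapped between clones, with 17 and 32 reads in wtPC12 and 2 and 20 in hrPC12 (adjusted p 0.347), and Cplx4 had 0 and 0 reads against 1 and 1.

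**Figure D2:**
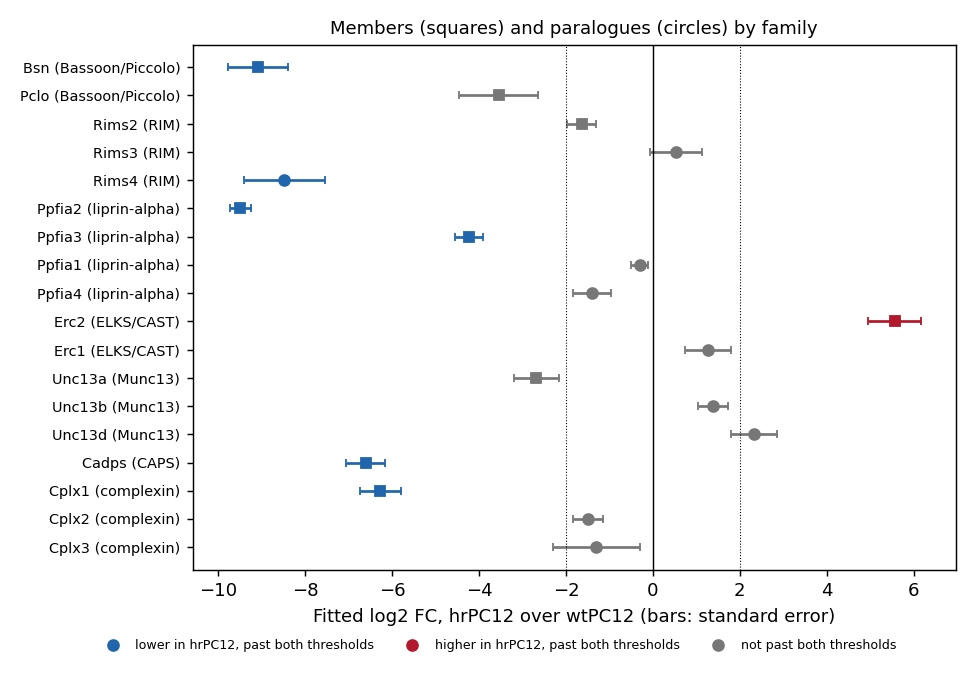
Fitted log2 FC (hrPC12/wtPC12) with its standard error for the 9 genes (squares) and their tested paralogues (circles), by family; dotted lines mark a log2 FC of 2 in either direction. Values range from -9.49 for Ppfia2 to 5.56 for Erc2, and Rims4 is the only paralogue past both thresholds.

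Across these families, 12 paralogues of the 9 genes were found in the count tables and 9 were tested. Of these, 1 fell (Rims4), none rose and 8 did not pass both thresholds, and the median over the 9 was -0.31 on the log2 scale. The largest folds within the liprin-alpha, ELKS/CAST, Munc13 and complexin families were thus those of the genes chosen here. In the Munc13 family neither Unc13a (log2 FC -2.68) nor Unc13d (2.33) passed both thresholds. Cadps was the only CAPS gene tested, and in the RIM family the largest fold was that of Rims4. The choice was made with these values known, and the differences between paralogues were not tested.

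The wider release machinery was taken as a list of 61 genes that includes the paralogues. Of these, 57 were found and 50 tested, 10 fell, 1 rose and 39 were past neither or only 1 threshold, and the median of their log2 FC was -0.70 against 0.06 over all tested genes. Vesicle Rab GTPases, which mark secretory vesicles for docking, made up 4 of the 10 genes that fell. Rab3a fell from 1923 and 1533 normalized counts to 339 and 359 (log2 FC -2.31), and Rab27a from 2664 and 2965 to 572 and 566 (log2 FC -2.31). Rab3c fell from 705 and 1011 reads to 5 and 2 (log2 FC -8.13), and Rab3b from 37 and 21 reads to 1 and 1 (log2 FC -4.95). For each of these GTPases both hrPC12 libraries lay below both of wtPC12. Rab3d was the 1 of 5 tested that did not pass (log2 FC -0.21, adjusted p 0.363). Rab27b, not tested because wtPC12 had no reads of it, went the other way, with 0 and 0 reads in wtPC12 and 15 and 7 in hrPC12.

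Genes for effectors of these GTPases and for related double C2-domain proteins moved in both directions, with 4 of 9 tested that fell and 1 that rose. Doc2b, a high-affinity calcium sensor, fell from 1158 and 2952 reads to 4 and 1 (log2 FC -9.83). Rph3a (rabphilin) fell from 144 and 297 reads to 6 and 0 (log2 FC -6.39). Rph3al (Noc2) fell from 492 and 608 normalized counts to 24.6 and 10.1 (log2 FC -4.96), and Sytl4 (granuphilin) from 2671 and 3617 to 62.6 and 85.0 (log2 FC -5.41). All 4 were without overlap between clones. Sytl5, another synaptotagmin-like Rab27 effector, rose from 1 and 2 reads to 61 and 36, a scaled ratio of 27.3 with a 95% exact counting interval of 9.06 to 135. For the genes with 3 reads or fewer in a library the fitted log2 FC depends on the prior count. Rimbp2, which connects RIM to calcium channels, fell from 392 and 701 normalized counts to 51.6 and 25.3 (log2 FC -3.82). The adjusted p of these 10 genes ranged from 0.000540 (Rab3c) to 0.00910 (Rab3b).

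None of the 7 tested genes for Munc18 and for NSF with its SNAP adaptors passed both thresholds, and their median was -0.68 on the log2 scale, close to that of the whole list. Nor did any of the 10 tested genes for liprin-beta, the LAR phosphatase Ptprf, the liprin partners and the Cask complex, with a median of -0.19. Cask itself was not tested because wtPC12 had no reads of it, with 0 and 0 reads there and 4 and 17 in hrPC12. Apba2 of the same complex, with 1 and 0 reads in wtPC12 and 0 and 3 in hrPC12, was not tested either. In the whole list 3 genes had an adjusted p under 0.01 with a log2 FC within 2, namely Madd (-1.99), Nsf (-1.66) and Ppfibp1 (1.79), which are named here after their values were seen.

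**Figure D3:**
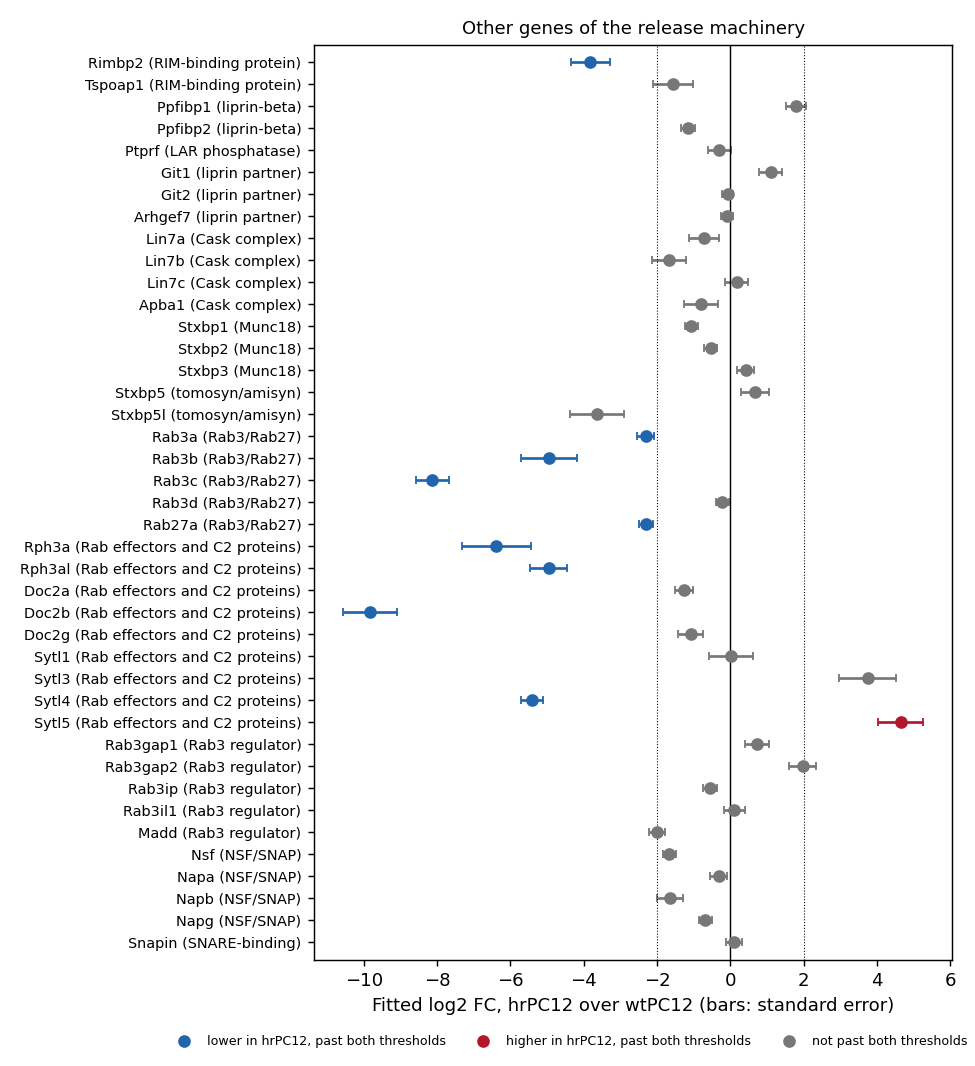
Fitted log2 FC (hrPC12/wtPC12) with its standard error for the 41 tested genes of the release machinery list outside the families above; dotted lines mark a log2 FC of 2 in either direction. The 9 genes that fell are Rimbp2, Rab GTPases, their effectors and C2 proteins, Sytl5 is the 1 that rose, and the Munc18, NSF and SNAP genes lie within the dotted lines.

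The spread between libraries of a clone differed among the 9 genes. Over 13352 genes with reads in every library, the median absolute log2 ratio was 0.38 between the wtPC12 libraries and 0.17 between those of hrPC12. Between the wtPC12 libraries it was 2.13 for Pclo, above 98.0% of genes, 1.76 for Erc2 at 3 and 1 reads, 1.41 for Bsn, above 93.8%, and 1.07 for Unc13a, above 88.8%. For Ppfia2 it was 0.06, above 8.65% of genes. Of the 9 genes, 7 were higher in wtPC12 replicate 2 and 2, Erc2 and Cplx1, in replicate 1. Between the hrPC12 libraries, Pclo (1.43, above 96.4%) and Unc13a (0.90, above 88.1%) again had the wide values, and 7 of the 9 genes were higher in hrPC12 replicate 1.

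The genes beside each of the 9 were compared with it, taking the 3 nearest tested genes on either side in the GRCr8 gene order, in which 75.7% of the tested genes could be placed. Of the 54 neighbours, 4 fell and 3 rose, with a median log2 FC of 0.03. None of the neighbours of Bsn, Rims2, Cadps or Cplx1 passed both thresholds, and those of Bsn ranged from -0.51 to 1.85. Beside Ppfia2, Syt1, the calcium sensor of fast release, fell (log2 FC -6.42) and Tmtc2 rose (5.14). The next tested gene on one side of each liprin-alpha gene, Lin7a for Ppfia2 (-0.71) and Lin7b for Ppfia3 (-1.68), which encode scaffold partners of Cask, did not pass. Erc2 rose between neighbours of which 2 fell, Arhgef3 (-2.05) and the calcium channel gene Cacna1d (-4.39). Beside Pclo, Sema3c rose (9.26), beside Ppfia3, Hrc rose (4.00), and beside Unc13a, Fam129c fell (-3.81).

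**Figure D4:**
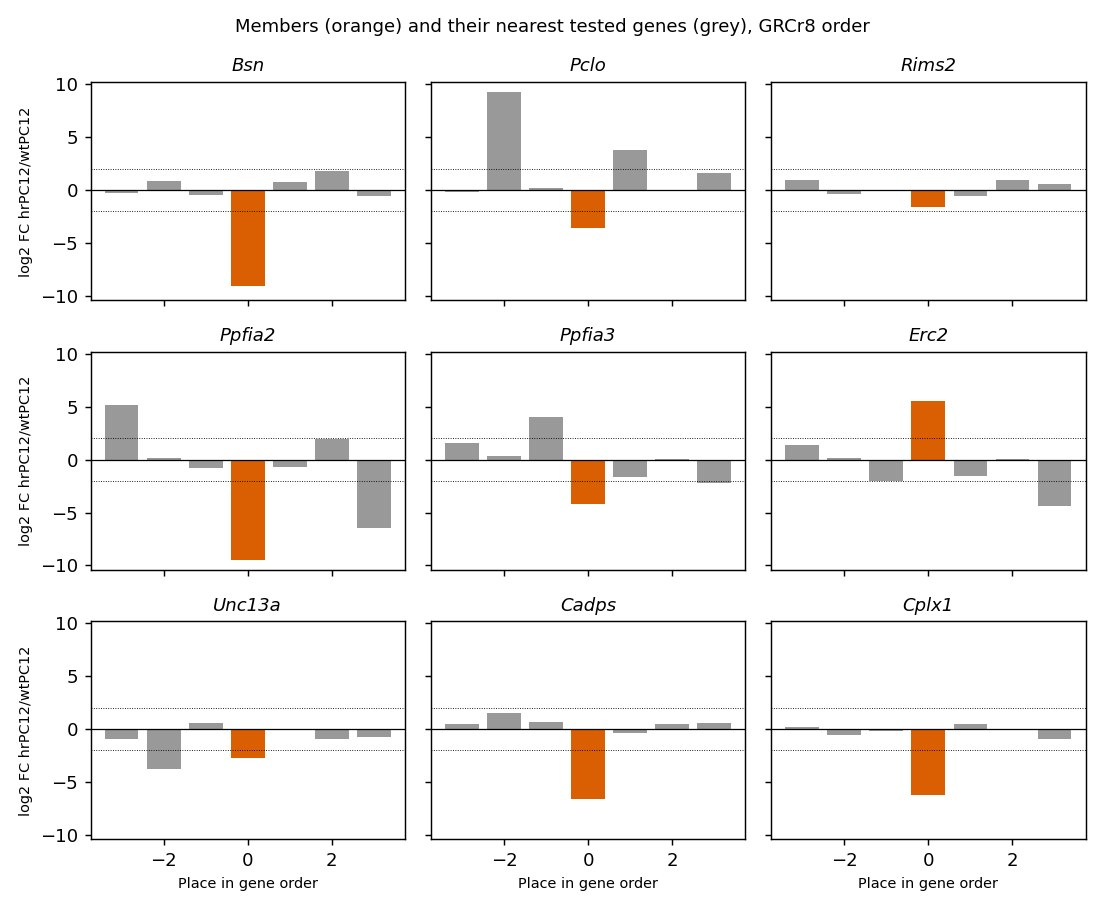
Fitted log2 FC (hrPC12/wtPC12) of each of the 9 genes (orange, place 0) and of the 3 nearest tested genes on either side in GRCr8 order (grey); dotted lines mark a log2 FC of 2 in either direction. The neighbours of Bsn, Cadps and Cplx1 lie within the dotted lines around genes at -9.08, -6.61 and -6.27.

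The neighbours were also compared between the hrPC12 libraries. The 6 neighbours of Pclo had a median log2 ratio of hrPC12 replicate 1 over replicate 2 of 0.93, and the 6 neighbours of Cadps one of 0.76. The median was -0.03 over all tested genes placed in the gene order and with reads in both hrPC12 libraries. Pclo itself was at 1.43, while Cadps, at 13 and 11 reads, had -0.02. For Unc13a, at 0.90, the neighbours had a median of -0.09.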

How the data were processed

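RNA-Seq data of 4 libraries (Illumina TruSeq v2, HiSeq, paired-end) were used. The authors aligned reads to rn4 and counted them per gene, and the deposited values are raw read counts; the submitters' processing notes name TopHat2 2.0.4, HTSeq 0.5.3 and DESeq 1.9.12. The kit does not mark strand, so overlapping antisense reads are not told apart. A deposited table of the authors' own means, fold changes and p values was not used.

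Lines that name no gene were left out, and 37.9% to 41.3% of reads fell on genes. Genes were tested if their mean was 5 normalized counts or more and each clone had reads, using edgeR 4.0.16 (R 4.3.3; TMM factors, quasi-likelihood test, legacy option on, Benjamini-Hochberg adjustment) at an adjusted p of 0.01 and a log2 FC of 2, and with DESeq2 1.42.0 as an alternative. Scripts were tested on simulated counts. With 2 libraries against 2, an exact permutation test cannot give a two-sided p under 0.333 and was not used. Counting intervals and the 3-read level (2.54 to 3.49 normalized counts) cover counting error only. The genes and lists were chosen with earlier results of these data known. All 10 genes, Rest, all paralogues and, of the other release machinery, the 10 genes past both thresholds with the largest log2 FC are named. The value of 1 marker is not reported here. RefSeq tables (GRCr8) gave names, gene order and promoters.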

Additional observations from a re-analysis of the deposited data

How the results depend on the processing

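The 5 lower and 1 higher calls among the 9 genes were recomputed with RLE factors, library totals, every gene with at least 1 read, filterByExpr, DESeq2, the legacy option off and an adjusted p of 0.05, which gave 5 to 7 lower and 1 higher. No log2 FC of the 9 genes or Rest changed sign. Leaving out each library gave 0 to 7 lower and 0 to 1 higher, for the other release machinery 0 to 11 lower and 0 to 2 higher, and for all tested genes 0 to 920 lower and 0 to 957 higher. The zeros are without wtPC12 replicate 2, where no tested gene passed with edgeR (6942 had an unadjusted p under 0.05), except that the higher count of the release machinery was also 0 without wtPC12 replicate 1; the lone library is assumed to vary like the others, and the cause was not tested. For the release machinery the higher count of 1 became 2 with library totals or the legacy option off, 3 at an adjusted p of 0.05, and 3 with DESeq2 without wtPC12 replicate 2, an alternative chosen after seeing the data. The higher count over all genes, 665, became 1127 with every gene with at least 1 read and 1088 at an adjusted p of 0.05. No paired analysis was possible because the labels give the clones no shared replicate numbers, and the numbers used here only name libraries in the order of the samples. The precision is limited by 2 libraries per clone and by few reads, such as 3 and 1 for Erc2 in wtPC12.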
